A study of Homo sapiens with 12 samples.

Results

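The genes described here encode flavin monooxygenases (FMO) and alcohol (ADH), aldehyde (ALDH) and aldo-keto (AKR) oxidoreductases. They were measured in HepG2, a line of human liver carcinoma cells, grown as spheroids (spheres of cells) in stirred flasks. Members were taken by symbol, as the numbered FMO, ADH, ALDH and AKR genes with the usual subfamily pattern, without AKR1D1. This gave 38 of the 18404 genes measured, namely 4 FMO, 7 ADH, 18 ALDH and 9 AKR genes. AKR1A1 and AKR1B1 were not analysed here, and neither was ALDH2, whose symbol lacks the subfamily pattern. The 12 arrays fall into 3 groups of 4, all from spheroids 10 days old: HIF-2α knockdown, HIF-1α knockdown and wild type HepG2. The submitters describe separate spheroid experiments for the arrays of a group. HIF-1α (gene HIF1A) and HIF-2α (gene EPAS1) are subunits of the hypoxia-inducible factors, which accumulate and drive transcription when oxygen is low. The method of knockdown, the number of clones and any control construct in the wild type cells are not stated in the labels.

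These enzymes handle small reactive molecules in the liver. Flavin monooxygenases add oxygen to nitrogen and sulphur atoms of drugs and dietary amines. Alcohol dehydrogenases oxidise ethanol, retinol and other alcohols to aldehydes or ketones, and aldehyde dehydrogenases carry aldehydes on to acids. Aldo-keto reductases work in the other direction and reduce aldehydes and ketones, including steroids, prostaglandins and lipid peroxidation products. Several of the AKR genes are known targets of NRF2, the transcription factor of the electrophile response.

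Each gene is given by the authors' deposited log2 value of its brightest probe set, so a difference of 1 is a change by a factor of 2. A probe set's level depends on its own sequence, so levels are compared between groups and not between genes. Differences were tested with limma over all 18404 genes, and a gene was called changed where its Benjamini-Hochberg adjusted p lay below 0.05. A gene is termed dim where its mean over the 12 arrays lay below 7.03, the 95th percentile of 340 olfactory receptor genes, which liver cells are not known to use. By this measure 27 members were above the dim range and 11 were in it. The dim members were FMO1, FMO2, FMO4, ADH1B, ADH1C, ADH7, ALDH1A2, ALDH3B2, AKR1C4, AKR1C8 and AKR1E2.

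The knockdowns were visible in their own transcripts. HIF1A averaged 9.46 ± 0.18 in HIF-1α knockdown and 10.70 ± 0.08 in wild type (SD, n = 4), so 42.5% of the signal remained (limma adjusted p = 0.00241). EPAS1 averaged 9.89 ± 0.16 in HIF-2α knockdown and 11.01 ± 0.18 in wild type, or 46.0% (adjusted p = 0.000206). On 3 arrays, HIF-2α knockdown replicate 4 and wild type replicates 1 and 2, the lowest values were raised: their 0.1 percentile was 6.33 to 6.35, against 6.11 to 6.23 elsewhere. When these 3 raised-floor arrays were left out, HIF1A differed by -1.24 and was no longer called (adjusted p = 0.103). All 8 hepatocyte markers measured lay above the dim range. Of the markers of other liver cells, 5 of 6 endothelial, 3 of 6 macrophage, 3 of 7 stellate or fibroblast and 2 of 5 cholangiocyte genes were dim. Whole arrays also differed for the members. HIF-2α knockdown replicate 2 held the highest value of its group for 17 of the 27 members above the dim range, and wild type replicate 3 for 18.

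Promoter sequences are shown for the member with the most stable difference and for a pair of neighbouring AKR1C genes whose values went together across arrays. They are the 250 bases before the RefSeq start, read 5′ to 3′ on the gene's own strand in GRCh38.p14. The FMO5 window lies at chr1:147225340-147225589 on the minus strand. Its capitals mark its match to ACGTG, the core that hypoxia-inducible factors are known to bind, read here on the opposite strand, 154 to 150 bases before the start.
FMO5: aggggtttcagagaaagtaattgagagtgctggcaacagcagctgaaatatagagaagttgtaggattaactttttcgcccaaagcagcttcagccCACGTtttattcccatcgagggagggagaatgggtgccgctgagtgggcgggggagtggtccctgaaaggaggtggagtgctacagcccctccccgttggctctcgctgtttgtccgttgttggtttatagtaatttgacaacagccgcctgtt

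The AKR1C1 window lies at chr10:4963165-4963414 on the plus strand, and the AKR1C2 window at chr10:5003858-5004107 on the minus strand. The capitals mark a run of 245 bases that both share letter for letter.
AKR1C1: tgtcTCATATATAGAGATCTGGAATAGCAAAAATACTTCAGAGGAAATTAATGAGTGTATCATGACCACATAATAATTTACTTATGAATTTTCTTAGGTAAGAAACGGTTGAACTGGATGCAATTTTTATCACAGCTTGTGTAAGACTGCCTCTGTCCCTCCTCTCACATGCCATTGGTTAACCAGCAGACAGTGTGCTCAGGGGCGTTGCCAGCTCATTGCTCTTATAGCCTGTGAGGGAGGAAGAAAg
AKR1C2: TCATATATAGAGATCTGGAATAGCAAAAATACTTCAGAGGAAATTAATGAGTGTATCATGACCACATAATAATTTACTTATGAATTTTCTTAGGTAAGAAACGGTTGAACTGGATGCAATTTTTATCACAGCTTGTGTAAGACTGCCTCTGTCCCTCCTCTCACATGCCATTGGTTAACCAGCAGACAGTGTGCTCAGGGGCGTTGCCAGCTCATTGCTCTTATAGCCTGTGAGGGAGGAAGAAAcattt

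Promoter windows were found for 32 of the 38 members. Searched on both strands, ACGTG occurred in 7 of these 32 (21.9%), against 18.7% of all 27305 windows of this length. GCGTG, the other common form of the core, occurred in 8 (25.0%) against 31.9%, and either form in 13 (40.6%) against 43.1%. TGACNNNGC, the core of the element that NRF2 binds, occurred in 1 member, AKR7A2, against 11.0% of all windows. Neither form of the hypoxia core was in the windows of AKR1C1 to AKR1C3, ADH6 or ALDH1L1, and ALDH5A1 held GCGTG. A match of letters is a description and not a binding site. Many members are also neighbours among protein-coding genes. All 7 ADH genes stand in 1 run, 6 AKR genes (AKR1E2, AKR1C1, AKR1C2, AKR1C3, AKR1C8 and AKR1C4) in another, and FMO2, FMO1 and FMO4 in another.

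In HIF-2α knockdown against HIF-1α knockdown, 3 of the 38 members were called changed. FMO5 and ALDH1L1 were lower and ALDH5A1 was higher in HIF-2α knockdown. These 3 are 7.89% of the members, against 2.77% of all genes called in this comparison (0.967% higher and 1.8% lower). In HIF-2α knockdown against wild type only ADH6 was called, and it was higher, which is 2.63% of the members against 0.788% of all genes (0.478% higher and 0.31% lower). In HIF-1α knockdown against wild type limma called none of the 38, against 0.962% of all genes (0.815% higher and 0.147% lower), and the smallest adjusted p was 0.142. At an unadjusted p below 0.05, 9 members lay apart there (5 higher, 4 lower in HIF-1α knockdown), or 23.7% against 13.2% of all genes. The same count was 10 (26.3%) in HIF-2α against HIF-1α knockdown, where all genes gave 13.6%, and 10 (26.3%) in HIF-2α knockdown against wild type, where they gave 12.01%. The knockdown comparisons share their wild type arrays.

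The 38 members had median differences close to those of all genes in the 3 comparisons. The median difference over the 38 members was 0.01 in HIF-2α knockdown against HIF-1α knockdown, where that of all genes was -0.01. Against wild type it was -0.03 in HIF-2α knockdown (all genes -0.01) and 0.01 in HIF-1α knockdown (all genes 0.00). These medians include the dim members. Over the 27 members above the dim range the median was 0.003 between the knockdowns, where all genes above that range gave -0.031. Against wild type it was 0.072 in HIF-2α knockdown (0.008) and 0.067 in HIF-1α knockdown (0.037). Values of the groups did not overlap for 7 members (18.4%) in HIF-2α knockdown against HIF-1α knockdown, with 9.08% of all genes as background. Against wild type they did not overlap for 4 members (10.5%) in HIF-2α knockdown (all genes 5.31%) and 4 in HIF-1α knockdown (all genes 7.84%).

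**Figure D1:**
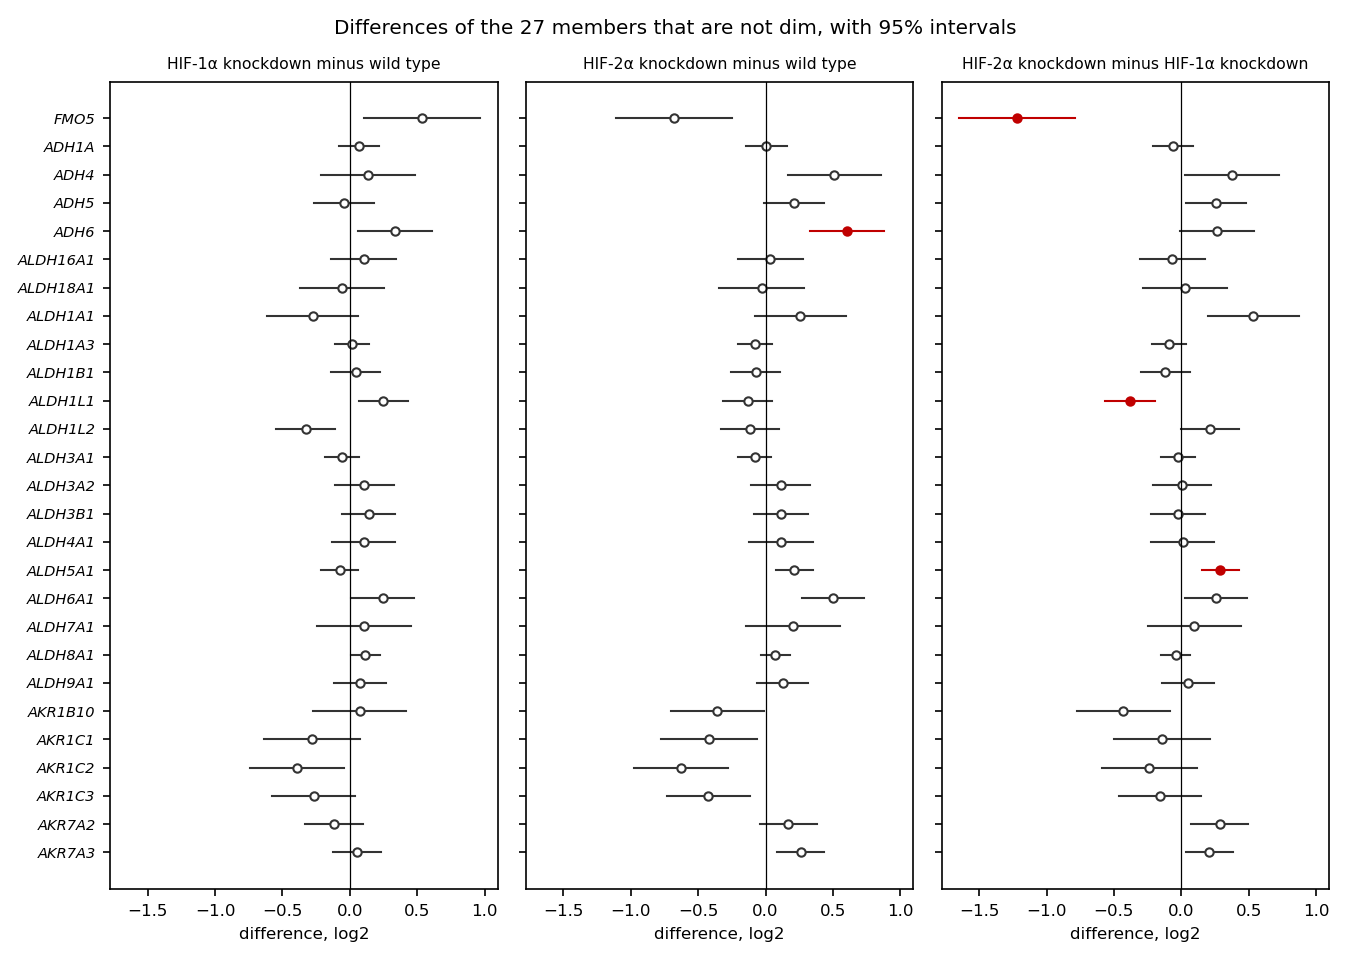
Differences in log2 value for the 27 members above the dim range, 1 panel per comparison, with limma's 95% intervals as lines. Filled red points are called changed: ADH6 in HIF-2α knockdown minus wild type, and FMO5, ALDH1L1 and ALDH5A1 in HIF-2α knockdown minus HIF-1α knockdown. The AKR1C1 to AKR1C3 and AKR1B10 points lie left of 0 in the middle panel and are not called. The AKR1C1 to AKR1C3 points lie left of 0 in the other panels too.

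Among the flavin monooxygenases only FMO5 was above the dim range. FMO5 is a liver form that is known for inserting oxygen next to ketones more than for oxidising amines. FMO5 had values of 7.99, 8.39, 8.39 and 8.21 in HIF-2α knockdown, 9.10, 9.43, 9.82 and 9.49 in HIF-1α knockdown, and 8.46, 8.67, 9.52 and 9.06 in wild type. Every HIF-2α knockdown array lay below every array of both other groups, while HIF-1α knockdown and wild type overlapped. FMO5 averaged 8.24 ± 0.19 in HIF-2α knockdown, 9.46 ± 0.29 in HIF-1α knockdown and 8.93 ± 0.47 in wild type (SD, n = 4 each).

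In HIF-2α knockdown the FMO5 signal was 43.0% of that in HIF-1α knockdown. The difference was -1.22 (SE 0.20, 95% interval -1.65 to -0.79, limma adjusted p = 0.00521). Against wild type the difference was -0.68 (SE 0.20, adjusted p = 0.146) in HIF-2α knockdown and 0.53 (SE 0.20, adjusted p = 0.241) in HIF-1α knockdown. Neither difference from wild type was called, and the knockdowns lay on opposite sides of it. With replicate numbers as a block both were called (adjusted p = 0.0123 in HIF-2α knockdown and 0.0433 in HIF-1α knockdown). Wild type had the widest spread of FMO5, and leaving out its replicate 3 moved the differences to -0.48 (adjusted p = 0.185) in HIF-2α knockdown and 0.73 (adjusted p = 0.0375) in HIF-1α knockdown. When the 3 raised-floor arrays were left out the differences from wild type were -1.03 (adjusted p = 0.112) and 0.17 (adjusted p = 0.800). The difference between the knockdowns kept its call in each of 9 other settings (-1.26 to -1.19) and with each of the 12 arrays left out in turn (-1.34 to -1.10).

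The other 3 flavin monooxygenases stayed near the floor. Group means of FMO1, a form of fetal liver and adult kidney, were 6.48 in HIF-2α knockdown, 6.47 in HIF-1α knockdown and 6.52 in wild type. FMO2, the main form of lung, averaged 6.61, 6.61 and 6.68 in the same groups, and FMO4 averaged 6.83, 6.80 and 6.80. At such values a low level cannot be told from no signal. Across the 11 dim members together, 9 differences from wild type were negative in each knockdown. In HIF-1α knockdown 52.0% of all genes had positive differences, against 64.1% of the genes above the dim range. In HIF-2α knockdown these shares were 44.6% and 52.7%, so dim genes in general were more often negative than the others. Of the 4 wild type arrays 2 were among the raised-floor arrays, and their part in these signs was not tested.

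**Figure D2:**
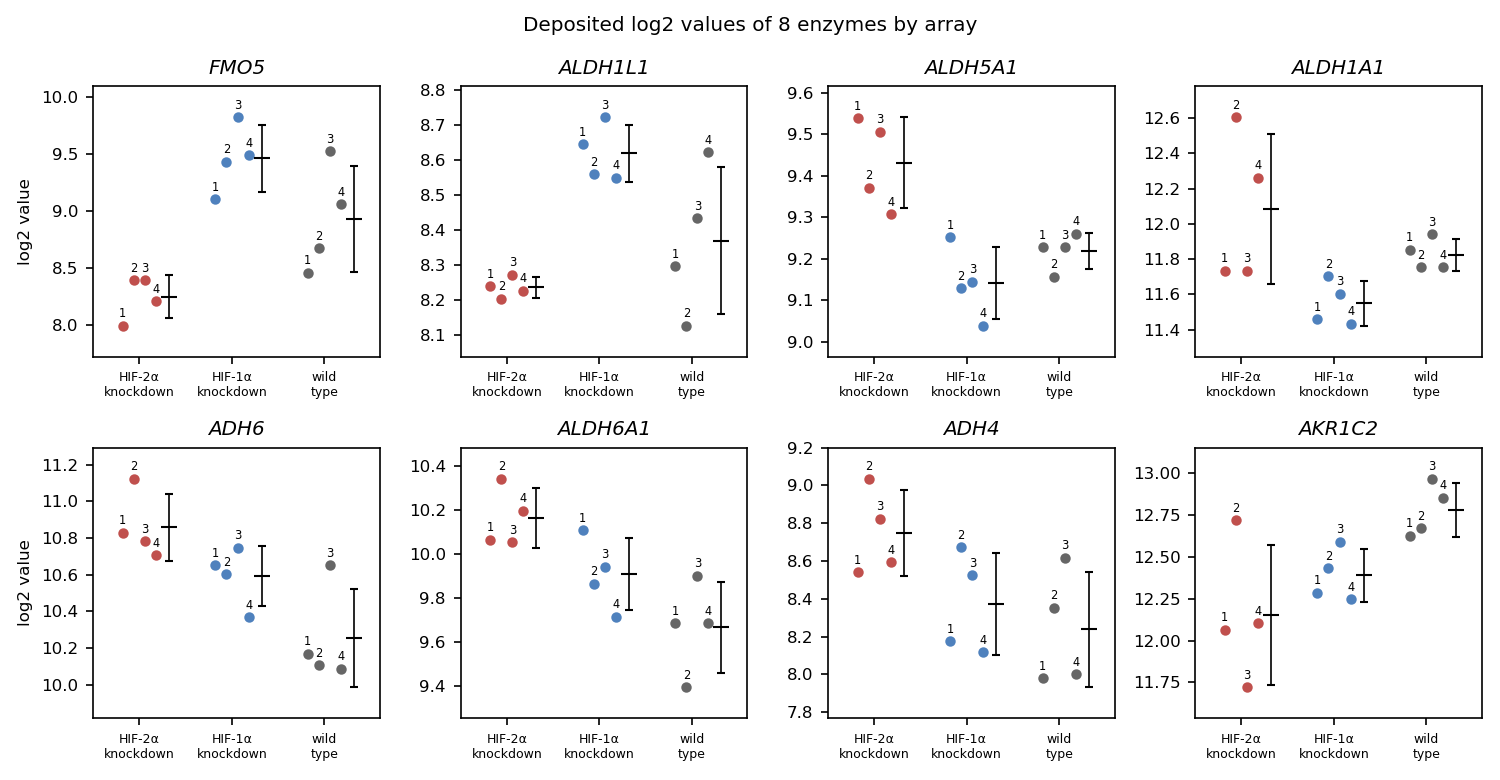
Deposited log2 value of 8 members on each array, with HIF-2α knockdown left, HIF-1α knockdown in the middle and wild type right. Numbers are replicate numbers, and the bar beside each group is the mean ± SD of 4 arrays. FMO5 and ALDH1L1 show HIF-2α knockdown below HIF-1α knockdown on every array, and ADH6 shows it above wild type on every array.

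Of the alcohol dehydrogenases, ADH6 was called higher in HIF-2α knockdown than in wild type. It is a class of its own, known mainly from its transcript in liver. ADH6 had values of 10.83, 11.12, 10.78 and 10.70 in HIF-2α knockdown, 10.65, 10.60, 10.75 and 10.37 in HIF-1α knockdown, and 10.17, 10.11, 10.65 and 10.09 in wild type. Wild type replicate 3 lay with the HIF-1α knockdown arrays, and all other wild type arrays lay below both knockdowns. The difference from wild type was 0.61 in HIF-2α knockdown (SE 0.13, 95% interval 0.33 to 0.88, 1.52-fold, limma adjusted p = 0.0466) and 0.34 in HIF-1α knockdown (SE 0.13, adjusted p = 0.246). Between the knockdowns it was 0.27 (SE 0.13, adjusted p = 0.387), so a difference between them was not called.

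The ADH6 call was narrow. It was lost when any of 10 of the 12 arrays was left out, with differences of 0.52 to 0.66 and adjusted p between 0.0574 and 0.140. It held without HIF-1α knockdown replicate 4 (adjusted p = 0.0428) and without wild type replicate 3, where the difference was 0.74 (adjusted p = 0.00617). Without wild type replicate 3 the difference in HIF-1α knockdown was called too, at 0.47 (adjusted p = 0.0319). When the 3 raised-floor arrays were left out, the difference was 0.54 (adjusted p = 0.293) in HIF-2α knockdown and 0.22 in HIF-1α knockdown.

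ADH4, the class II enzyme that oxidises ethanol at high concentrations and retinol, had values of 8.54, 9.04, 8.82 and 8.59 in HIF-2α knockdown, 8.18, 8.67, 8.53 and 8.12 in HIF-1α knockdown, and 7.98, 8.35, 8.62 and 8.0 in wild type. All groups overlapped, and the difference of HIF-2α knockdown from wild type was 0.51 (SE 0.16, limma adjusted p = 0.185). ADH5, the glutathione-dependent formaldehyde dehydrogenase found in all tissues, had values of 10.22, 10.50, 10.20 and 10.24 in HIF-2α knockdown, 10.08, 10.05, 10.12 and 9.89 in HIF-1α knockdown, and 10.04, 9.85, 10.39 and 10.03 in wild type. HIF-2α knockdown lay above HIF-1α knockdown on every array, by 0.26 on average (SE 0.10, adjusted p = 0.275), and the difference was not called. With quantile normalization it was 0.27 and called (adjusted p = 0.0224).

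The class I enzymes that clear most ethanol in adult liver were at or near the floor in these spheroids. ADH1A averaged 7.09 in HIF-2α knockdown, 7.15 in HIF-1α knockdown and 7.09 in wild type. ADH1B ran from 6.49 to 6.72 in HIF-2α knockdown, 6.64 to 6.72 in HIF-1α knockdown and 6.60 to 6.76 in wild type. ADH1C ran from 6.62 to 6.88, 6.57 to 6.71 and 6.48 to 6.74 in the same groups. The largest difference among these and ADH7, the form of the upper digestive tract, was 0.12, and none was called.

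Among the 18 aldehyde dehydrogenase members, which do not include ALDH2, calls came from enzymes of folate and of γ-aminobutyrate metabolism, both between the knockdowns. ALDH1L1, the cytosolic formyltetrahydrofolate dehydrogenase, had values of 8.24, 8.20, 8.27 and 8.23 in HIF-2α knockdown, 8.64, 8.56, 8.72 and 8.55 in HIF-1α knockdown, and 8.30, 8.13, 8.43 and 8.62 in wild type. HIF-2α and HIF-1α knockdown did not overlap, and wild type spanned the gap between them. ALDH1L1 was 76.7% of the HIF-1α knockdown signal in HIF-2α knockdown, a difference of -0.38 (SE 0.09, 95% interval -0.57 to -0.20, limma adjusted p = 0.0295). Against wild type it was -0.13 (adjusted p = 0.602) in HIF-2α knockdown and 0.25 (adjusted p = 0.191) in HIF-1α knockdown, or 0.091 there when the raised-floor arrays were left out. The call was lost without any 1 of HIF-2α knockdown replicates 2, 3 and 4 or HIF-1α knockdown replicates 1 to 4 (adjusted p between 0.0537 and 0.117).

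ALDH1L2, the mitochondrial counterpart of ALDH1L1, had a difference of the opposite sign between the knockdowns, not called (0.21, SE 0.10, limma adjusted p = 0.385). Its values were 7.54, 7.70, 7.56 and 7.45 in HIF-2α knockdown, 7.22, 7.36, 7.39 and 7.45 in HIF-1α knockdown, and 7.47, 7.66, 8.02 and 7.57 in wild type. HIF-1α knockdown lay below wild type on every array, by -0.33 (SE 0.10, limma adjusted p = 0.142; -0.22 without wild type replicate 3), which is not a call, and HIF-2α knockdown differed from wild type by -0.12 (SE 0.10).

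ALDH5A1 oxidises succinic semialdehyde, the last step of γ-aminobutyrate breakdown. Its values were 9.54, 9.37, 9.51 and 9.31 in HIF-2α knockdown, 9.25, 9.13, 9.14 and 9.04 in HIF-1α knockdown, and 9.23, 9.16, 9.23 and 9.26 in wild type. HIF-2α knockdown lay above both other groups on every array. The difference from HIF-1α knockdown was 0.29 (SE 0.06, 95% interval 0.15 to 0.43, limma adjusted p = 0.0261), and that from wild type was 0.21 (SE 0.06, adjusted p = 0.153), or 0.13 with quantile normalization. The call was lost without any 1 of HIF-2α knockdown replicates 1 and 3 or HIF-1α knockdown replicates 2, 3 and 4 (adjusted p between 0.0586 and 0.0903).

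ALDH6A1, the methylmalonate semialdehyde dehydrogenase of valine breakdown, had values of 10.06, 10.34, 10.05 and 10.20 in HIF-2α knockdown, 10.11, 9.87, 9.94 and 9.71 in HIF-1α knockdown, and 9.69, 9.39, 9.90 and 9.68 in wild type. All HIF-2α knockdown arrays lay above all wild type arrays. The difference was 0.50 (SE 0.11, limma adjusted p = 0.0520) in HIF-2α knockdown and 0.24 (SE 0.11, adjusted p = 0.346) in HIF-1α knockdown. A second, dimmer probe set of ALDH6A1 gave 0.43 (SE 0.10) in HIF-2α knockdown and 0.46 (SE 0.10) in HIF-1α knockdown. Between the knockdowns the brighter probe set gave 0.26 (SE 0.11, adjusted p = 0.298, not called) and the dimmer -0.03 (SE 0.10). The difference of the brighter in HIF-1α knockdown was 0.12 when the raised-floor arrays were left out, 0.16 with quantile normalization and 0.15 without wild type replicate 2. Without wild type replicate 3 the brighter probe set's difference in HIF-2α knockdown was called, at 0.58 (adjusted p = 0.0246). It was also called without HIF-1α knockdown replicate 1 (adjusted p = 0.0465) or replicate 4 (adjusted p = 0.0481). Of 9 other settings 3 gave a call. They were quantile normalization (0.43, adjusted p = 0.0252), leaving out dim genes (adjusted p = 0.0439) and a trended robust prior (adjusted p = 0.0240).

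ALDH1A1, the retinaldehyde dehydrogenase that is also used as a marker of stem-like cells, had values of 11.73, 12.60, 11.73 and 12.26 in HIF-2α knockdown, 11.46, 11.70, 11.60 and 11.43 in HIF-1α knockdown, and 11.85, 11.75, 11.94 and 11.75 in wild type. HIF-1α knockdown lay below both other groups on every array, while replicates 2 and 4 of HIF-2α knockdown stood high above replicates 1 and 3. The difference between HIF-2α and HIF-1α knockdown was 0.53 (SE 0.16, limma adjusted p = 0.103). Without HIF-2α knockdown replicate 1 it was 0.65 and called (adjusted p = 0.0369), as it was at 0.41 with quantile normalization (adjusted p = 0.0382). It was 0.36 without replicate 2 (adjusted p = 0.168) and 0.32 with array weights (adjusted p = 0.174). ALDH8A1, an enzyme of tryptophan breakdown, ran from 7.27 to 7.38 in HIF-2α knockdown, 7.32 to 7.42 in HIF-1α knockdown and 7.19 to 7.33 in wild type, and its largest difference was 0.11 (SE 0.05, adjusted p = 0.343).

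Among the other ALDH genes above the dim range the largest difference in any comparison was 0.20, for ALDH7A1, and none was called in the deposited scaling. They include ALDH1B1, a mitochondrial enzyme that oxidises acetaldehyde, with means of 11.48 in HIF-2α knockdown, 11.60 in HIF-1α knockdown and 11.55 in wild type. ALDH18A1, which makes proline precursors, averaged 10.89, 10.86 and 10.92 in the same groups, and ALDH4A1, which breaks proline down, averaged 9.23, 9.22 and 9.11. ALDH3A2, the fatty aldehyde dehydrogenase, averaged 10.29, 10.28 and 10.17, and ALDH7A1, an enzyme of lysine breakdown, 10.48, 10.39 and 10.28. ALDH9A1, an enzyme of carnitine synthesis, averaged 8.98, 8.93 and 8.85. ALDH16A1, ALDH3B1, ALDH3A1 and ALDH1A3 had differences between -0.09 and 0.14. The dim ALDH1A2, another retinaldehyde dehydrogenase, and ALDH3B2 had differences between -0.06 and 0.04.

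The AKR1C enzymes reduce steroids and prostaglandins, and AKR1B10 reduces retinal and lipid aldehydes and is known to be high in liver cancer. AKR1C2, which inactivates dihydrotestosterone, had values of 12.06, 12.72, 11.72 and 12.10 in HIF-2α knockdown, 12.29, 12.43, 12.59 and 12.25 in HIF-1α knockdown, and 12.63, 12.67, 12.97 and 12.86 in wild type. All HIF-1α knockdown arrays lay below wild type, and so did 3 of 4 HIF-2α knockdown arrays, whereas HIF-2α knockdown replicate 2 lay within the wild type range. The difference from wild type was -0.63 (SE 0.16, 95% interval -0.98 to -0.28, limma adjusted p = 0.0999) in HIF-2α knockdown and -0.39 (SE 0.16, adjusted p = 0.304) in HIF-1α knockdown. Neither was called in the deposited scaling. With all 12 arrays, the difference in HIF-2α knockdown was called with quantile normalization (-0.57, adjusted p = 0.0278) and with array weights (-0.73, adjusted p = 0.0492). Quantile normalization moved the AKR1C2 difference in HIF-1α knockdown to -0.12 (adjusted p = 0.714).

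AKR1C1, which inactivates progesterone, had values of 11.80, 12.63, 11.74 and 12.12 in HIF-2α knockdown, 12.12, 12.27, 12.37 and 12.10 in HIF-1α knockdown, and 12.60, 12.26, 12.74 and 12.38 in wild type. AKR1C3, which makes testosterone and prostaglandin F, had values of 9.65, 10.40, 10.03 and 10.18 in HIF-2α knockdown, 10.04, 10.25, 10.37 and 10.23 in HIF-1α knockdown, and 10.60, 10.25, 10.74 and 10.38 in wild type. AKR1B10 had values of 8.67, 9.41, 8.61 and 8.71 in HIF-2α knockdown, 9.20, 9.45, 9.49 and 8.96 in HIF-1α knockdown, and 9.21, 9.05, 9.36 and 9.19 in wild type. In each of these, replicate 2 was the highest array of HIF-2α knockdown. AKR1C1 and AKR1B10 were chosen for array values after these had been seen.

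With all arrays, HIF-2α knockdown differed from wild type by -0.42 (SE 0.17) for AKR1C1, -0.43 (SE 0.14) for AKR1C3 and -0.36 (SE 0.16) for AKR1B10, with limma adjusted p of 0.308, 0.215 and 0.396. Without HIF-2α knockdown replicate 2 the difference was -0.82 (SE 0.11, adjusted p = 0.00659) for AKR1C2 and -0.61 (SE 0.12, adjusted p = 0.0484) for AKR1C1, and both were then called. For AKR1C3 it was -0.54 (adjusted p = 0.126) and for AKR1B10 it was -0.54 (adjusted p = 0.0574). AKR1B10 was then also called lower in HIF-2α than in HIF-1α knockdown, at -0.62 (adjusted p = 0.0142), against -0.43 (adjusted p = 0.229) with all arrays. Leaving out the other HIF-2α knockdown arrays gave no call: AKR1C2 was -0.60, -0.48 and -0.61 without replicates 1, 3 and 4 (adjusted p between 0.157 and 0.207). AKR1C1 was -0.33, -0.31 and -0.44 (adjusted p between 0.343 and 0.495). With all 4 arrays of the group and quantile normalization, AKR1C1 (-0.40, adjusted p = 0.0331) and AKR1C3 (-0.49, adjusted p = 0.0456) were called too. In HIF-1α knockdown AKR1C1 differed from wild type by -0.28 (limma adjusted p = 0.538), AKR1C3 by -0.27 (0.472) and AKR1B10 by 0.07 (0.902), none called. Between the knockdowns AKR1C1 to AKR1C3 differed by -0.14, -0.24 and -0.16 (adjusted p between 0.644 and 0.831), not called. Quantile normalization moved AKR1C2 to -0.45 (adjusted p = 0.0462) and AKR1C1 to -0.34 (adjusted p = 0.0411) there, both called.

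Gene lists outside the members were read on the same array. The mean of 25 NRF2 targets outside the members was 10.39 on HIF-2α knockdown replicate 2, and 10.04 to 10.20 on the other 3 arrays of the group, against 10.06 to 10.29 in wild type. The mean of 54 ribosomal protein genes was 12.03 there, within the range of the other 3 (11.55 to 12.07), and 11.70 to 12.22 in wild type. Their part in the AKR1C values was not tested.

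AKR1C1 and AKR1C2 are near-identical copies, so probes for one may also take up the other's transcript, and their values may not be independent. Deviations of AKR1C1, AKR1C2 and AKR1C3 from their group means correlated at r between 0.58 and 0.87 over the 12 arrays, against a median of 0.28 over all 351 pairs of the 27 members above the dim range. High r was not particular to these copies. AKR1C1 correlated at 0.92 with ALDH1A1, of another family, and at 0.89 with AKR1B10, against 0.87 with AKR1C2. Pairs within a family had a median of 0.22. The genes of an array share its RNA, labelling and scan, so these correlations are a description. The neighbours ADH5 and ADH6 had the highest r of any pair, 0.94, and wild type replicate 3 and HIF-2α knockdown replicate 2 were the highest arrays of their groups in both. A second probe set of AKR1C1 was dim at 6.98 and showed 0.05 (SE 0.07) in HIF-2α knockdown against wild type.

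**Figure D3:**
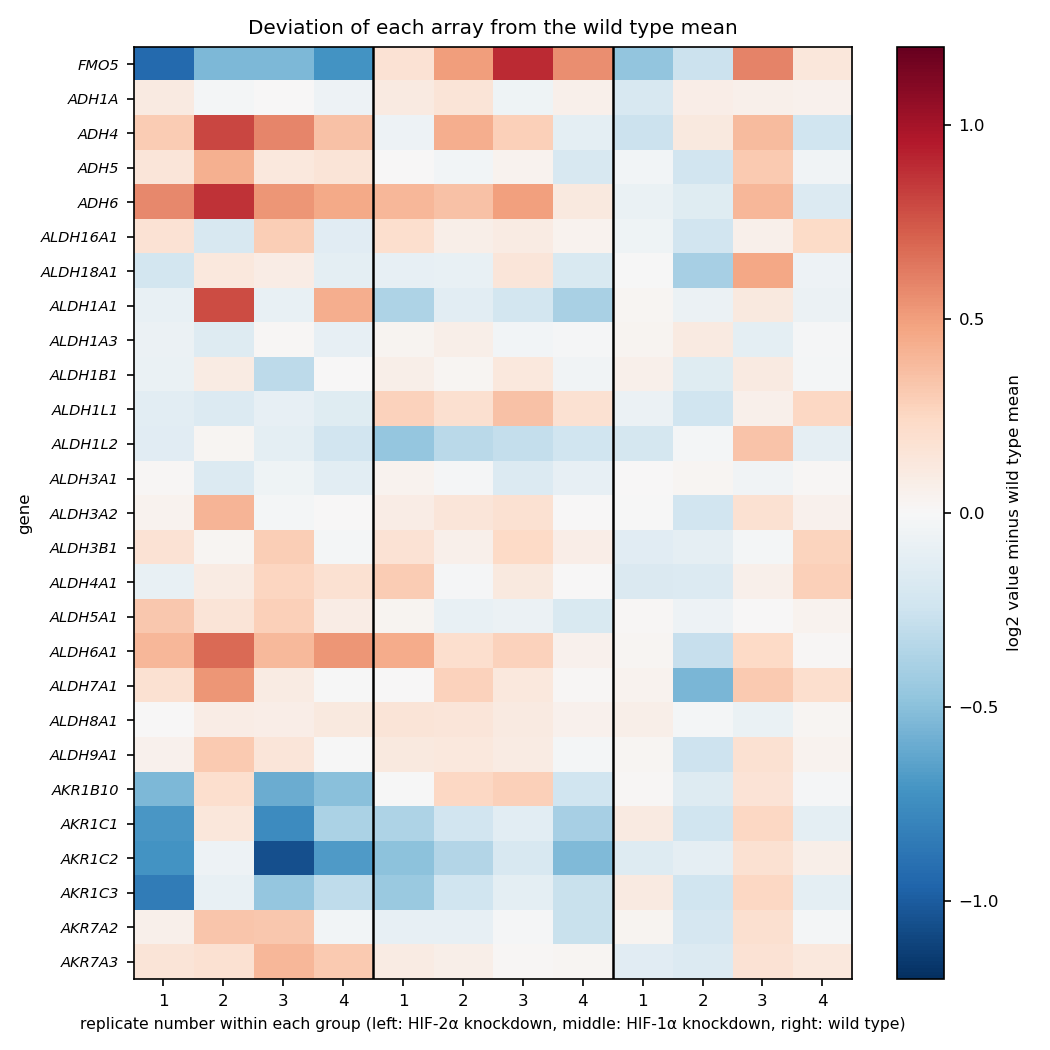
Log2 value on each array minus the wild type mean, for the 27 members above the dim range (rows) and the 12 arrays (columns, HIF-2α knockdown left, HIF-1α knockdown in the middle, wild type right). FMO5 is blue on all 4 HIF-2α knockdown arrays and red on all 4 HIF-1α knockdown arrays. AKR1B10 and AKR1C1 to AKR1C3 lie below the wild type mean on HIF-2α knockdown replicates 1, 3 and 4, and near or above it on replicate 2.

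None of the remaining AKR members was called. AKR7A2 and AKR7A3 reduce the dialdehyde of aflatoxin. AKR7A2 had values of 10.64, 10.91, 10.90 and 10.55 in HIF-2α knockdown, 10.49, 10.48, 10.57 and 10.32 in HIF-1α knockdown, and 10.62, 10.38, 10.77 and 10.56 in wild type. The groups overlapped, and HIF-2α knockdown exceeded HIF-1α knockdown by 0.29 (SE 0.10, limma adjusted p = 0.175). AKR7A3 had values of 8.20, 8.23, 8.45 and 8.36 in HIF-2α knockdown, 8.15, 8.12, 8.07 and 8.07 in HIF-1α knockdown, and 7.92, 7.88, 8.22 and 8.18 in wild type. HIF-2α knockdown lay above HIF-1α knockdown on every array, by 0.21 (SE 0.08, adjusted p = 0.253), and exceeded wild type by 0.26 (SE 0.08, adjusted p = 0.180). The AKR7A3 difference from wild type was 0.094 when the raised-floor arrays were left out. AKR1C4, the liver form that serves bile acid synthesis, AKR1C8 and AKR1E2 were dim, with differences between -0.15 and 0.03.

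Genes of related pathways were set beside the members, with the counts over all genes as above. Of 28 measured genes of retinoid metabolism none was called in any comparison, and their median difference lay between -0.03 and 0.01. The unadjusted p was below 0.05 for 1 of them in HIF-2α knockdown and 2 in HIF-1α knockdown against wild type, and for 4 between the knockdowns, where all genes gave the 12.01%, 13.2% and 13.6% above. Of 38 measured enzymes that handle carbonyls, alcohols or aldehydes outside the members, only AKR1D1 was called, an AKR gene left out of the members. The median difference of the 38 lay between 0.02 and 0.04. At an unadjusted p below 0.05, 7 of these 38 were higher and 2 lower in HIF-2α knockdown against wild type (12.01% of all genes). In HIF-1α knockdown against wild type 4 were higher and 2 lower (13.2%), and between the knockdowns 4 were higher and 4 lower (13.6%). AKR1D1, the steroid reductase of bile acid synthesis, averaged 9.26 ± 0.16 in HIF-2α knockdown, 8.47 ± 0.14 in HIF-1α knockdown and 8.82 ± 0.13 in wild type. It rose by 0.45 against wild type (SE 0.09, limma adjusted p = 0.0438) and by 0.80 against HIF-1α knockdown (adjusted p = 0.000468).

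Of 25 measured NRF2 targets outside the members, only GSTA1 was called. GSTA1, a glutathione transferase, averaged 7.78 ± 0.21 in HIF-2α knockdown, 8.43 ± 0.28 in HIF-1α knockdown and 7.34 ± 0.17 in wild type (SD, n = 4 each). It was higher in HIF-1α knockdown than in wild type by 1.09 (SE 0.14, limma adjusted p = 0.00263) and lower in HIF-2α than in HIF-1α knockdown by -0.65 (adjusted p = 0.0214). The median difference of these 25 genes was -0.02 in HIF-2α knockdown and -0.06 in HIF-1α knockdown against wild type, and 0.01 between the knockdowns. At an unadjusted p below 0.05, 2 of the 25 were higher and 5 lower in HIF-2α than in HIF-1α knockdown (13.6% of all genes). Against wild type, 3 were higher and 2 lower in HIF-1α knockdown (13.2%), and 2 higher and 1 lower in HIF-2α knockdown (12.01%). None of 6 measured polyol and fructose genes was called by limma in any comparison. At an unadjusted p below 0.05 there was 1 of the 6 in HIF-1α knockdown against wild type (13.2% of all genes), 1 between the knockdowns (13.6%) and 0 in HIF-2α knockdown against wild type (12.01%).

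Hepatocyte markers were followed beside the members. The mean of the 8 measured markers lay between 12.02 and 12.64 on HIF-2α knockdown arrays, 11.66 and 11.92 on HIF-1α knockdown arrays, and 12.23 and 12.65 on wild type arrays. All 8 had negative differences in HIF-1α knockdown against wild type, with a median of -0.51, and 1 was called, the fibrinogen chain FGB, which was lower. In HIF-2α against HIF-1α knockdown 7 of the 8 had positive differences (median 0.40), and against wild type 1 of 8 had (median -0.12), with FGB called higher in HIF-2α knockdown in both. Of the 54 ribosomal protein genes, 53 had positive differences in HIF-2α against HIF-1α knockdown (median 0.29, 1 called), and 53 had negative ones in HIF-1α knockdown against wild type (median -0.40, 1 called). In HIF-2α knockdown against wild type 42 were negative (median -0.09, 0 called by limma, 2 at an unadjusted p below 0.05). Of the members, FMO5, ADH6 and ALDH1L1 had positive differences in HIF-1α knockdown against wild type, and ALDH5A1, ALDH1A1 and AKR1C1 to AKR1C3 negative ones. Over all 38 members 19 were positive and 19 negative there. Between the knockdowns ALDH5A1 had a positive difference, and FMO5 and ALDH1L1 negative ones. The part of these lists in the members' values, including the 3 calls between the knockdowns, was not tested.

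**Figure D4:**
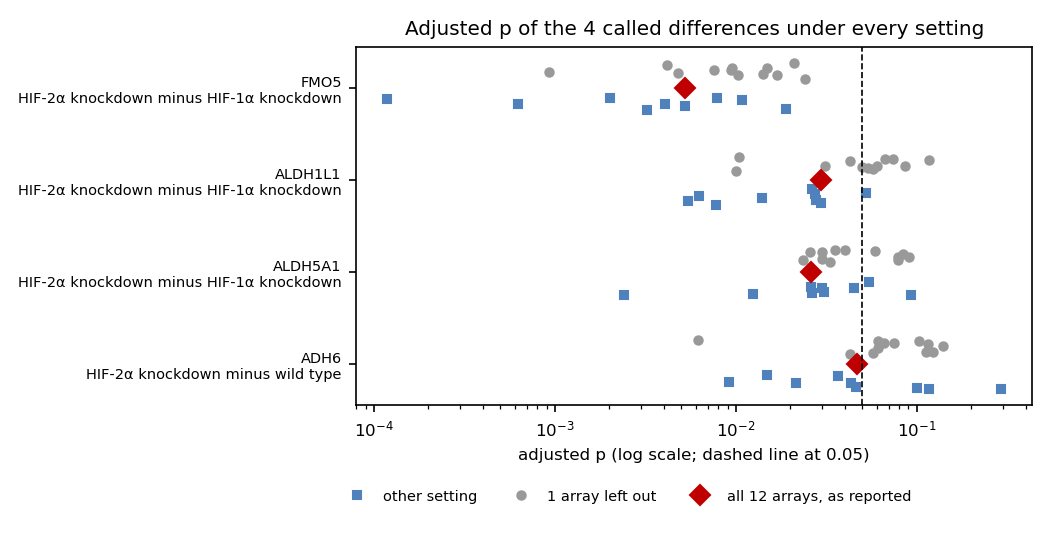
Adjusted p (log axis) of the 4 called differences: all 12 arrays as reported (red diamond), 9 other settings (blue squares) and each array left out in turn (grey circles), with a dashed line at 0.05. FMO5 lies left of the line in every case, and ALDH1L1, ALDH5A1 and ADH6 have points on both sides.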

How the data were processed

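Expression was measured on 12 Affymetrix arrays of amplified, biotin-labelled RNA, 4 per group, per the labels' protocols. The authors deposited 1 table of log2 values for 32321 probe sets. How they corrected background, summarized and normalized is not given in the sources used here, and the log base was inferred from the range, 5.93 to 15.1. The table holds no counts or detection calls, so the number of arrays limits the precision.

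Of the probe sets, 19158 had 1 symbol in the platform annotation, 1388 had several and 11775 none. Symbols were updated through Entrez identifiers (19128 matched) in a RefSeq table of GRCh38.p14. The brightest of several probe sets stood for a gene (637 genes), leaving 18404. limma 3.58.1 in R 4.3.3 was fitted on group means over all 12 arrays with eBayes and 1 shared variance per gene, and p was adjusted by Benjamini-Hochberg over 18404 genes. No gene was filtered out. A p-value speaks only of the spread among these arrays. The fit was also run on simulated data, in which each gene was drawn independently. The deviations that genes share on a real array were absent there, so that run cannot show how the calls stand up to them.

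Array values are given for called members and up to 4 more per family by smallest unadjusted p, with ranges or means for those near the floor. The members and lists were chosen with earlier results of these data known. Other settings were quantile normalization, median centring, leaving out dim genes, the most variable probe set, a trended robust prior, 2 groups in the fit, array weights, replicate numbers as a block, leaving out the 3 raised-floor arrays, and leaving out each array in turn.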

Additional observations from a re-analysis of the deposited data

Results flagged for a closer look

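Of 114 groups of 4 arrays examined (38 members in 3 groups), 6 held an array that stood apart from the others. Chance gives about 1 in 20 such groups. Of the 6, 3 were HIF-2α knockdown replicate 2: ALDH3A2 at 10.59 (10.15 to 10.22 on the others), ADH5 at 10.50 (10.20 to 10.24) and AKR1B10 at 9.41 (8.61 to 8.71). In wild type, ADH6 was 10.65 on replicate 3 (10.09 to 10.17 on the others), and ADH1A was 6.89 on replicate 1 (7.14 to 7.17). The dim AKR1C4 was 6.46 on HIF-2α knockdown replicate 1 (6.64 to 6.67).

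The knockdown groups differed from each other for 3 members by the limma test of HIF-2α minus HIF-1α knockdown. The difference was -1.22 for FMO5, -0.38 for ALDH1L1 and 0.29 for ALDH5A1. None of these members was called against wild type in either knockdown with all arrays in the deposited scaling. The ALDH1L1 and ALDH5A1 calls were lost when certain single arrays were left out.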

How the results depend on the processing

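Under other settings, the members called in HIF-2α minus HIF-1α knockdown (3: 1 higher, 2 lower) became 8 with quantile normalization (3 higher, 5 lower). Those added were ADH5, ALDH1A1, ALDH1B1, AKR1C1 and AKR1C2. The members called became 2 with array medians centred (1 lower), and 2 with a trended robust prior or with 2 groups in the fit (0 higher in each). They ran from 1 to 3 with single arrays left out (higher 0 to 1, lower 1 to 2). In HIF-2α knockdown minus wild type (1, higher) they became 6 with quantile normalization (2 higher, 4 lower: FMO5 and AKR1C1 to AKR1C3). They were 0 with medians centred, with 2 groups in the fit or without the 3 raised-floor arrays, 2 with dim genes left out or the trended prior (both higher), 2 with array weights (1 lower), and 0 to 2 with single arrays left out (higher 0 to 2, lower 0 to 2). In HIF-1α knockdown minus wild type (0) they were 0 in all of these, except 0 to 2 with single arrays left out (FMO5 and ADH6, both higher, without wild type replicate 3).

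Calls over all genes moved as well. For HIF-1α knockdown minus wild type 177 became 85 (medians centred), 288 (trended prior), 396 (2 groups), 605 (array weights) and 22 (raised-floor arrays out), and 50 to 483 with single arrays left out. For HIF-2α knockdown minus wild type 145 became 404 (quantile), 72 (centred), 285 (trended prior), 64 (2 groups) and 37 (raised-floor arrays out), and 61 to 219. For HIF-2α minus HIF-1α knockdown 509 became 888 (quantile), 337 (centred), 980 (array weights) and 259 (raised-floor arrays out), and 211 to 618. Quantile normalization moved the higher share of calls to 34.9% from 60.7% (HIF-2α knockdown minus wild type) and to 55.1% from 84.7% (HIF-1α knockdown minus wild type), and centring moved the first to 47.2%. HIF1A in HIF-1α knockdown lost its call without the raised-floor arrays (-1.24, fewer samples).

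Replicate numbers gave no clear pairing over all genes. Of 12 correlations of same-numbered arrays 5 were above 0.1 (range -0.17 to 0.64). In 5 of 24 cases an array correlated best with its own number. For numbers 1 to 4 the correlations were 0.17, 0.31, 0.64 and -0.04 between HIF-1α knockdown and wild type. Between HIF-2α knockdown and wild type they were -0.09, -0.14, -0.03 and -0.17, and between the knockdowns 0.13, 0.22, 0.03 and 0.06. These values cannot exclude pairing. With the replicate block, members called were 4 (2 higher), 3 (2 higher, 1 lower: FMO5) and 1 (higher, FMO5) in the 3 comparisons in the order above. ADH4 was among those called higher in the first 2. The SE of FMO5 was 0.11 with the block and 0.20 without it, and that of ADH4 was 0.077 and 0.16. All 26 reversals of sign were of uncalled differences near 0, and the cause was not tested. In HIF-2α minus HIF-1α knockdown these were FMO1 (-0.040) with quantile normalization, FMO2 (0.014) with medians centred, FMO1 (-0.024) without the raised-floor arrays, with single arrays left out FMO2 (-0.030 to 0.013) and FMO1 (-0.024 to 0.025). In HIF-2α knockdown minus wild type these were FMO1 (0.030) without the raised-floor arrays, with single arrays left out FMO1 (-0.079 to 0.027). In HIF-1α knockdown minus wild type these were FMO4 (0.025), FMO1 (0.021) and AKR1B10 (-0.026) with quantile normalization, FMO2 (0.013), FMO4 (0.030), FMO1 (0.054) and AKR7A3 (-0.098) without the raised-floor arrays, with single arrays left out FMO4 (-0.020 to 0.015), FMO1 (-0.085 to 0.021), AKR7A3 (-0.0031 to 0.11), ADH5 (-0.12 to 0.060), ADH1C (-0.0040 to 0.083) and ADH1B (-0.0018 to 0.050).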
